A study of Homo sapiens with 8 samples.

Results

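The clustered histone genes encode the core histones H2A, H2B, H3 and H4, which form the nucleosome, and the linker histone H1. Members were the protein-coding genes of the GENCODE annotation on chromosomes 1 and 6 whose symbols are H1- with a number or H2AC, H2BC, H3C or H4C with a number, including those listed under the older HIST names. The rule found 65 genes of 20163 protein-coding genes: 6 H1, 17 H2A, 16 H2B, 13 H3 and 13 H4 genes. They were read in peak lists from ATAC-seq, which uses the enzyme Tn5 to cut and tag open chromatin, so that accessible DNA yields more sequenced fragments.

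HUDEP-2 is an established human erythroid precursor cell line that depends on Kit signaling. The cells carried a control guide RNA (sgControl), were kept without growth factors for 5 h, and then received the Kit ligand stem cell factor (SCF, 50 ng/ml) or phosphate-buffered saline (PBS) for 1 h. The EGR1 guide served to silence an element with dCas9-KRAB, a form of Cas9 that represses without cutting, and sgControl is its control. The deprivation was shared by all 4 libraries, 2 with PBS and 2 with SCF. The methods call the replicates biological duplicates. The 4 samples with a guide at an EGR1 element were not analysed here.

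Most clustered histone genes are transcribed mainly while DNA is replicated, when new chromatin needs a supply of histones. NPAT, a substrate of cyclin E and CDK2, gathers at the clusters in a nuclear body and promotes their transcription. Their mRNAs end in a stem-loop in place of a poly(A) tail. H2A and H2B genes often stand head to head and share the DNA between their start sites. The study asked which chromatin sites answer Kit signaling within the first hour, and the promoters of these genes are read here with that comparison.

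The lists gave 29215 to 33550 peaks per library on the 24 chromosomes. From the fold enrichment and p-value of each peak, 2 further quantities were recovered, the summit pileup (fragments over the highest point of the peak) and the local background (fragments expected there from the surrounding DNA). Read totals are unknown from peak lists. The lowest background in a library, which scales with depth, was 1.05 and 1.50 fragments with PBS and 0.944 and 0.885 with SCF, so both SCF libraries were the shallower ones. A peak was assigned to a gene when its summit lay within 1 kb of an annotated start site. Of the 12 erythroid genes used to check the cell type, 9 had a peak in all 4 libraries, among them GATA1, KLF1, TAL1 and KIT, while HBG1 and HBG2 had none and ALAS2 had a peak in 1 library. Among genes of other lineages, ALB, CD3E, CD79A, MPO, MYOD1 and NEUROD1 had no peak, and COL1A1 had a peak in all 4.

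The sequences below carry the promoter layouts to which the values refer. The capitals mark the short words searched: the CCAAT box (CCAAT), the TATA box (TATAAA), the octamer (ATTTGCAT) that Oct-1 binds, the core of H4 site II (GGTCCG) that HINFP recognises, the H1 box (AAACACA) and 2 spellings of an E2F site (TTTGGCGC and TTTCGCGC), each on either strand. Every stretch stops before the first transcribed base. H2BC11/H2AC11 is shown as the divergent pair with the highest pileup and H2AC1/H2BC1 as the pair with no peak. H4C3, H1-3 and H3C10 are shown as the H4 and H1 genes of highest and the H3 gene of lowest fold enrichment rank. H4C14 is shown because its sequence is repeated upstream of H4C15. All are from GRCh37, read 5′ to 3′ on the strand of the gene or, for the pairs, on the plus strand.
H2BC11/H2AC11, chr6:27100575-27100821, plus strand: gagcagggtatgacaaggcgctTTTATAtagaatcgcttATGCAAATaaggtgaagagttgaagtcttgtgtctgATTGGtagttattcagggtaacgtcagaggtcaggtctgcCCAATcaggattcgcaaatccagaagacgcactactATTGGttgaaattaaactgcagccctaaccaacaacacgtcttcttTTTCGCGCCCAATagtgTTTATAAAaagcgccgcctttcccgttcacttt
H2AC1/H2BC1, chr6:25726791-25727004, plus strand: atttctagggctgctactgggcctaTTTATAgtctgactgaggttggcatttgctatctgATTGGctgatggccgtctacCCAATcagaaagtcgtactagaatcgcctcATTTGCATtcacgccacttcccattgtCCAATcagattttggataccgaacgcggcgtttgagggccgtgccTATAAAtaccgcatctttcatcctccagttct
H4C3, chr6:26103961-26104160, plus strand: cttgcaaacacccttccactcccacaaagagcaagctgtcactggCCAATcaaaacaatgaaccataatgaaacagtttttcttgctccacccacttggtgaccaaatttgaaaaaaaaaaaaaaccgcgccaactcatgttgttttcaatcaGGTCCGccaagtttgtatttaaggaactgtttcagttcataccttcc
H1-3, chr6:26235216-26235415, minus strand: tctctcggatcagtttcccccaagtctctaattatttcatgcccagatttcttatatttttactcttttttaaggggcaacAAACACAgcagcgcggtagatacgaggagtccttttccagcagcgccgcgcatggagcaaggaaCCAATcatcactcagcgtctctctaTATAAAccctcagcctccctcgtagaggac
H3C10, chr6:27777629-27777828, plus strand: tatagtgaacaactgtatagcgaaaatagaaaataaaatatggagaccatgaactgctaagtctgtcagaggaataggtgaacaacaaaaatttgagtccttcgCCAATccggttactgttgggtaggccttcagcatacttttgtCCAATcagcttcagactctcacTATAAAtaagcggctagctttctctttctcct
H4C14, chr1:149804071-149804220, plus strand: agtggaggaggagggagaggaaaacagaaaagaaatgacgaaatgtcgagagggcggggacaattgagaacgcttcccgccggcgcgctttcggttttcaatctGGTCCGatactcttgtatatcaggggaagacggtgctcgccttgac

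In H2BC11/H2AC11 a TATA box lay near each end of the stretch, reading outward toward each gene, with 4 CCAAT boxes and an E2F spelling between them and an octamer on the H2BC11 side. The TATA box on the H2AC11 side overlaps a match on the other strand. H2AC1/H2BC1 also had a TATA box near each end, with 3 CCAAT boxes and an octamer between them, and had no E2F spelling. In H1-3 the H1 box began 119 bases before the start, the CCAAT box 55 and the TATA box 30 bases before it. H3C10 had CCAAT boxes at 96 and 54 bases and a TATA box at 32 bases before its start. In H4C3 the site II core began 47 bases before the start.

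The families differed in these words. Promoters were read from 250 bases before to 50 after the canonical start of each gene, and matches are descriptions of sequence, not of binding. The CCAAT box was in 55 of 65 histone promoters, against 35.9% of all 20163 promoters, and only 4 of the 13 H4 promoters held it. The TATA box was in 43 of 65, against 9.80% of all promoters. The octamer was in 12 of 17 H2A and 12 of 16 H2B promoters, in none of the H1, H3 and H4 promoters, and in 1.58% of all promoters. Since H2A and H2B partners share their upstream DNA, these counts are not independent. The site II core was in 11 of 13 H4 promoters and in 14.6% of all promoters. The H1 box was in 6 of 6 H1 promoters and in 4.21% of all. An E2F spelling was in 13 of 65 and in 1.54% of all.

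Words for factors tied to Kit signaling and to erythroid genes were also counted. The AP-1 word TGANTCA was in 1 histone promoter, of an H3 gene, and in 5.42% of all promoters. The EGR word GCGTGGG was in 0 of 65 and in 8.52% of all. A GATA word (AGATAA or TGATAA) was in 8 of 65, or 12.3%, and in 11.4% of all.

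**Figure D1:**
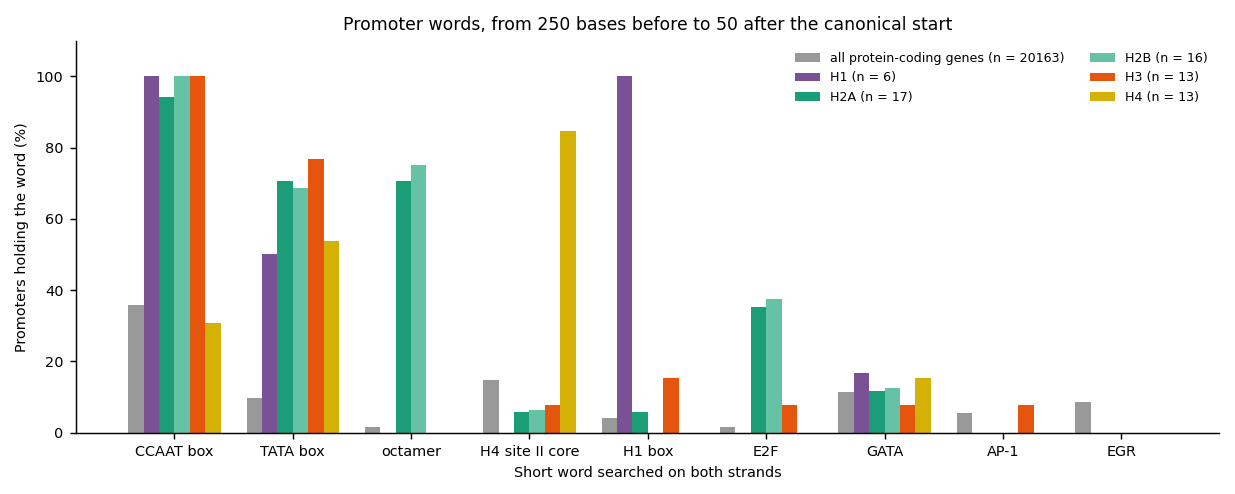
Share of promoters (y axis, percent) that hold each short word (x axis) on either strand, for all protein-coding genes (grey) and for the 5 histone families (colors). The octamer bars stand at the H2A and H2B families, the site II core bar reaches 84.6% at H4, and the H1 box bar reaches 100% at H1.

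A peak summit lay within 1 kb of the start in all 4 libraries at 47 of 65 histone genes, against a background of 59.7% of protein-coding genes. At 7 genes this held in 1 to 3 libraries. At 11 genes it held in none, against 32.9% of protein-coding genes. By family, 3 of 6 H1, 14 of 17 H2A, 14 of 16 H2B, 7 of 13 H3 and 9 of 13 H4 genes were called in all 4 libraries. The genes called in none were H1-1, H1-5, H1-6, H2AC1, H2BC1, H3C13, H3C14, H3C15, H4C7, H4C14 and H4C15.

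The 7 partly called genes were H2AC21, H3C1, H2AC4, H3C11, H2BC3, H3C3 and H4C13, and the canonical start of each lay inside a peak in all 4 libraries. In some libraries a single wide peak covered neighboring genes and had its summit at the other gene, and in others each gene had its own peak. At H2AC4 and H3C2 the PBS libraries had a joined peak of 2543 and 2565 bp, and the SCF libraries had separate peaks. For another example, H3C1 and H4C1 were covered by peaks of the same region, and the summit was within 1 kb of H3C1 in the PBS replicate 2 library alone. The starts of H1-5 and H3C13 also lay inside a peak in all 4 libraries although its summit was farther than 1 kb away. Counting a gene by whether any of its starts lay inside a peak, a rule chosen after seeing the data, gave 53 genes in all 4 libraries and 11 in none.

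The genes outside every peak formed 2 kinds by the uniqueness of their sequence. Within 500 bp of the start, the share of 75-base words that occur once in the genome was 0% at H4C14, H4C15, H3C14, H3C15, H2AC18 and H2AC19 in the chromosome 1 cluster, and none of these canonical starts lay in a peak. The 150 bases before H4C14 and before H4C15 differed at 0 positions. A 75-base read from such copies has no single place in the genome. How the authors treated these reads is not given in the sources used here, and their part in the missing peaks was not tested. H2AC18 and H2AC19 were nonetheless counted as called, through peaks of low pileup (15 to 24 fragments) whose summits lay 588 to 854 bp upstream of the start. Those upstream peaks had mean pileup ranks of 40.9 and 45.1, the lowest of the members called in all 4 libraries.

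At H1-1, H1-6, H2AC1, H2BC1 and H4C7 100% of the words were unique, and no peak covered the start in any library. H1-6 encodes the linker histone of the testis, and H2AC1 and H2BC1 encode testis forms of H2A and H2B. H4C7 is the H4 gene whose predicted protein differs from that of the other 12. H3C6 was the remaining gene with its canonical start in no peak: its peak lay at a second annotated start farther upstream. At unique sequence (at least 90% of words), 42 of 48 genes had their canonical start in a peak in all 4 libraries.

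**Figure D2:**
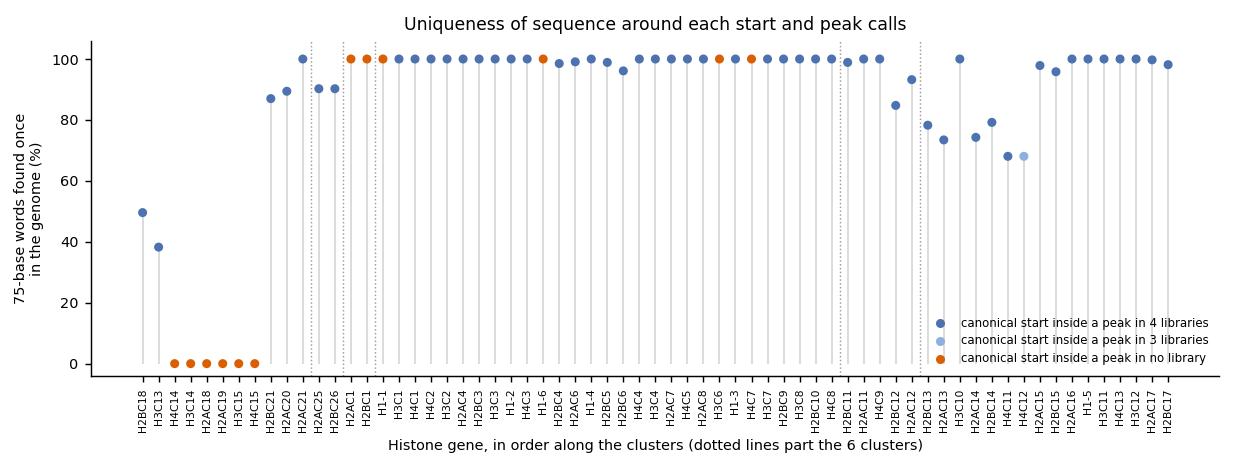
Share of 75-base words within 500 bp of the canonical start that occur once in the genome (y axis, percent) for each histone gene in cluster order (x axis), colored by whether the start lay inside a peak. The 6 genes at 0% and 6 genes at 100% had their start in no peak in any library.

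The histone promoters had tall peaks over a high local background. The assigned peaks merged into 41 regions, and all 41 were called in the 4 libraries, against 78.3% of the 15273 regions at protein-coding starts. The regions were 489 to 3389 bp wide, with a median of 1888 bp, and 13 of them served 2 or 3 genes. Their median summit pileup was 132, 172, 104 and 108 fragments in PBS replicates 1 and 2 and SCF replicates 1 and 2. For all start-site regions called in 4 libraries the corresponding medians were 58, 78, 54 and 52 fragments. Ranked by pileup within each list, from 0 (lowest) to 100 (highest), 39 of 41 regions had a mean rank of at least 80, and H2AC18 and H2AC19 were the exceptions. Among all start-site regions the share at that rank was 44.6%.

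By fold enrichment, the deposited ratio of pileup to local background, the same regions ranked in the middle of the lists. Their median rank was 43.8 and 49.4 with PBS and 48.7 and 47.0 with SCF, whereas start-site regions as a whole had medians of 72.6 to 75.99. The local background at the histone regions had medians of 21.4, 28.0, 15.9 and 18.96 fragments, against 4.63, 6.55, 4.33 and 4.27 at all start-site regions. Among regions with a mean pileup between 100 and 250 fragments, the 28 histone regions had a median fold enrichment of 6.71 and a median background of 25.8, and 2747 other start-site regions had medians of 13.5 and 9.48. The histone regions also covered more DNA, with medians of 1511 to 1779 bp against 859 to 944 bp. The part of peak width and of neighboring peaks in the local background was not tested.

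**Figure D3:**
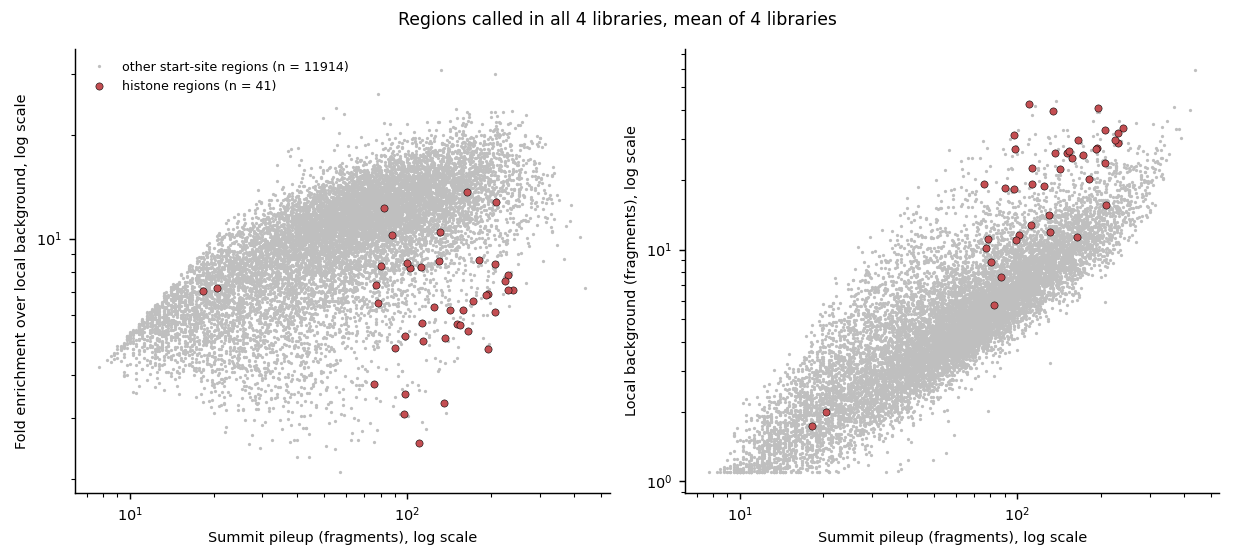
Fold enrichment (left, log scale) and local background in fragments (right, log scale) against summit pileup in fragments (x axis, log scale), as means of 4 libraries, for 41 histone regions (red) and 11914 other start-site regions (grey) called in all 4. Most histone regions lie toward the right on pileup, below the grey cloud on fold enrichment and above it on background.

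The H4 genes had the highest median fold enrichment of the families, 8.50 over the 9 called genes, with a range of 5.60 to 13.7. Of the 13 H4 genes, 12 encode the same predicted protein, and their promoters nonetheless ranged widely. At H4C3 the fold enrichment was 12.9 and 11.98 with PBS and 15.04 and 14.8 with SCF, over summit pileups of 162, 198, 136 and 159 fragments. At H4C8 it was 11.7 and 12.5 with PBS and 13.3 and 13.5 with SCF. These were the highest mean ranks of all members, at 89.9 and 86.8. The SCF values lay above the PBS values at both genes. On the deposited fold enrichment this held at 12 of 41 histone regions and 17.6% of all regions called in all 4 libraries. The reverse held at 6 of 41 and 18.5%. The tests of the difference at both genes are given further on. H4C5 followed with a mean rank of 63.4, and H4C2 had the lowest rank of the called H4 genes at 34.2. The median local background of the called H4 genes was 14.1 fragments, compared with 28.1 for H2A, 26.6 for H2B and 28.4 for H3.

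The H2A and H2B genes had the highest pileups. Of 10 divergent pairs with starts 194 to 251 bp apart, 9 were called in all 4 libraries at both genes, and H2AC1/H2BC1 was called in none. At the 9 called pairs the summit lay between the starts, within 20 bp, in 30 of 36 pair and library combinations. At H2BC11/H2AC11, picked here for its pileup, the summit held 223 and 292 fragments with PBS and 235 and 211 with SCF, and the fold enrichment was 6.47, 6.59, 8.03 and 7.19. The local background there was 33.6, 43.5, 28.4 and 28.5 fragments. The 9 pairs ranged in mean pileup from 131 to 240.2 fragments and in mean fold enrichment rank from 23.3 to 74.9.

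The lowest pair by pileup was the highest by fold enrichment. This was H2AC25/H2BC26, which stands apart from the larger clusters on chromosome 1 (starts at 228645574 and 228645804). Its fold enrichment was 10.3 and 9.14 with PBS and 11.3 and 11.1 with SCF, over a mean background of 11.9 fragments. After it, the highest H2A ranks were those of H2AC8 (61.8) and H2AC12 (57.1), and the highest H2B ranks those of H2BC18 (73.4) and H2BC6 (61.0). The sequence around the H2BC18 start was 49.6% unique. The H2BC6 value came from a second annotated start upstream, and the region at its canonical start had a mean rank of 44.1.

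The H3 genes had the lowest median fold enrichment of the families, 4.78 over the 7 genes called in all 4 libraries. That value is the one of H3C12 at an upstream start in a neighboring pair's region, and with H3C12 taken at its canonical start the median was 3.79. Of the 13 genes, 10 encode the same predicted protein of 136 residues, and 7 of those 10 were called in all 4 libraries. H3C13, H3C14 and H3C15, which encode the other form, were called in none, and their sequences were 38.3%, 0% and 0% unique. The start of H3C13 nonetheless lay inside a peak in all 4 libraries, unlike those of H3C14 and H3C15. At H3C10 the fold enrichment was 2.97 and 2.46 with PBS and 2.35 and 2.40 with SCF, which placed it at a mean rank of 0.423, the lowest of all members with a peak. Its summit pileups were 132, 139, 81 and 90 fragments, a mean pileup rank of 91.0, and its local background was 43.8, 55.9, 33.9 and 36.9 fragments. H3C4 was alike, with fold enrichments of 3.27, 2.78, 3.38 and 2.95 and pileups of 109, 115, 87 and 79 fragments.

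H3C8 had a mean rank of 8.87 and H2BC9 one of 22.3, and with H3C10, H3C4 and H1-4 they were the 5 lowest members called in all 4 libraries. Among the H3 genes called in all 4 libraries, the highest rank was that of H3C6 at 84.8, with fold enrichments of 12.3, 12.6, 12.8 and 11.5, at its upstream start. H3C7 and H3C2 followed with mean ranks of 28.7 and 26.1. H3C12 was counted through an upstream start in the shared H2AC17/H2BC17 region, and at its canonical start the fold enrichment was 3.13, 3.38, 3.08 and 3.76.

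By the rule of a summit within 1 kb, the linker histone genes split evenly. H1-3, H1-2 and H1-4 were called in all 4 libraries, and H1-1, H1-5 and H1-6 in none. The start of H1-5 nonetheless lay inside a peak in all 4 libraries, unlike those of H1-1 and H1-6. H1-3 had fold enrichments of 8.22, 8.03, 8.11 and 8.61 and a mean rank of 60.5, and H1-2 a mean rank of 43.4. H1-4 had fold enrichments of 4.23, 3.26, 3.72 and 2.92, a mean rank of 5.64, and a mean pileup rank of 88.8. The pileups of H1-3 (89 to 144 fragments) and H1-4 (68 to 119 fragments) overlapped across libraries, and their fold enrichments did not.

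**Figure D4:**
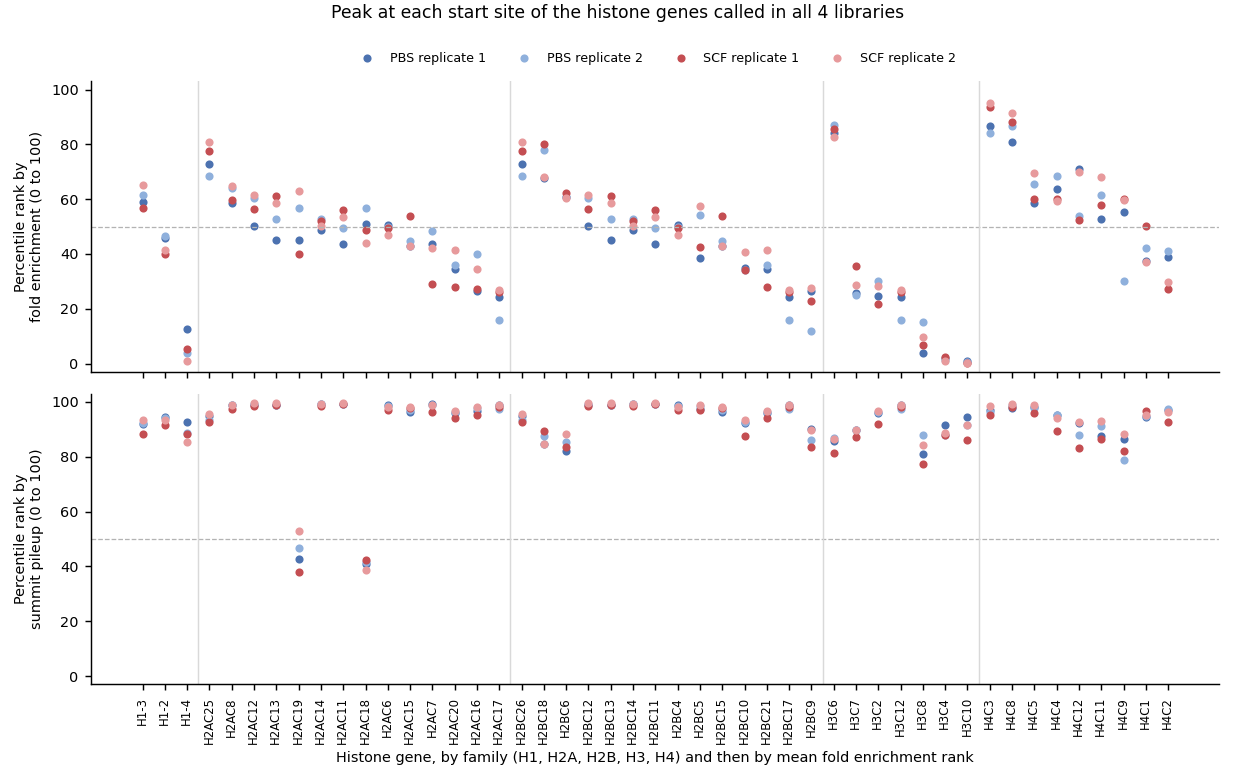
Percentile rank (0 to 100) within each library by fold enrichment (top) and by summit pileup (bottom) for the 47 histone genes called in all 4 libraries, ordered by family and mean rank, with 1 point per library. Fold enrichment ranks spread from near 0 (H3C10) to 95.2 (H4C3), while pileup ranks stay above 75 apart from H2AC18 and H2AC19. Genes that share a peak have the same points.

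Genes that act on the clustered histone genes, from a list chosen for that role, were all called: 20 of 20 in all 4 libraries, against 59.7% of protein-coding genes. Their median fold enrichment rank was 85.1 and their median pileup 117.5 fragments. For all start-site regions called in 4 libraries these medians were 74.2 and 60.5 fragments. NPAT had a mean rank of 84.5, CASP8AP2, which works with it in the histone locus body, 96.8, and HINFP, the H4 site II factor, 94.5. COIL, the coilin gene, had the highest at 97.8, SLBP, whose protein binds the stem-loop, 85.8, and CCNE2, a cyclin E gene, the lowest at 49.8. Histone genes outside the clusters, many of them variants expressed through the cell cycle, were called in all 4 libraries in 9 of 12 cases, with a median rank of 65.1. H2AZ2 had the highest at 89.7. H4C16, which encodes H4 on another chromosome, had the lowest at 22.6. H3-5 and MACROH2A2 had no peak.

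SCF was compared with PBS at the 41 regions, to ask whether Kit stimulation moved these promoters within 1 h. By rank, 0 regions gained and 0 lost, where a gain or a loss means that every SCF value lay at least 10 points above or below every PBS value. Of 22355 regions called in all 4 libraries, 2.57% gained and 3.04% lost rank. The mean of the 2 library medians of rank was 46.6 ± 3.95 (SD, n = 2) with PBS and 47.8 ± 1.22 (SD, n = 2) with SCF. The difference was smaller than the SD of the PBS replicates and about the size of the SD of the SCF replicates. A single value in 2 against 2 libraries cannot reach a p below 0.333 by an exact permutation test, so the test across all regions was used.

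In limma on log2 fold enrichment, centred on the median region of each library and adjusted over all 22355 regions by Benjamini-Hochberg, 0 histone regions and 0% of all regions had an adjusted p under 0.05. At an unadjusted p under 0.05 stood 1 of 41 histone regions and 6.86% of all regions. That 1 region was H4C3, with a difference of 0.27 (SE 0.12), an unadjusted limma p of 0.0388 and an adjusted p of 0.706. At H4C8 the difference was 0.15 (SE 0.12), with an unadjusted limma p of 0.231 and an adjusted p of 0.873. The median difference over the 41 regions was 0.07, with 30 regions above 0. Over all regions the median was -0.0017, with 49.6% above 0.

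The ends of the order were not past the test either. The largest differences were at H4C9 (0.40, SE 0.24, limma adjusted p = 0.78), H2AC13/H2BC13 (0.28, SE 0.20) and H4C3. At H4C9 the PBS replicates were 7.75 and 5.06 and the SCF replicates 8.55 and 7.91, so PBS replicate 2 lay below the other 3 libraries. The smallest were at H3C10 (-0.18, SE 0.15), H4C2 (-0.18, SE 0.22) and H1-4 (-0.17, SE 0.21), and their limma adjusted p were 0.876 to 0.94.

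The direction over the group depended on the quantity read. On log2 summit pileup, centred in the same way, the median difference was -0.11, and 14 of 41 regions were above 0. Over all regions the median was -0.0028, with 49.6% above 0. Here 5 of 41 regions were lower with SCF at an unadjusted limma p under 0.05, against 3.29% of all regions, and none passed adjustment, with a smallest adjusted p of 0.612. The 5 regions were H2AC4/H3C2 (-0.47), H2AC7 (-0.37), H4C2 (-0.37), H3C10 (-0.37) and H4C4 (-0.36). Each region was represented by its peak of highest fold enrichment. At H2AC4/H3C2 this was a joined peak with its summit at H3C2 in the PBS libraries (148 and 198 fragments) and a separate peak at H2AC4, 1548 bp away at most, in the SCF libraries (96 and 105), so its difference does not compare 1 summit. At the H3C2 summit the SCF libraries had 109 and 130 fragments, still below both PBS values. The other 4 regions had 1 peak in each library. Before centring, pileups were lower with SCF without overlap at 25 of 41 regions and at 39.6% of all regions, and both SCF libraries were shallower. The part of depth in the centred difference was not tested.

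**Figure D5:**
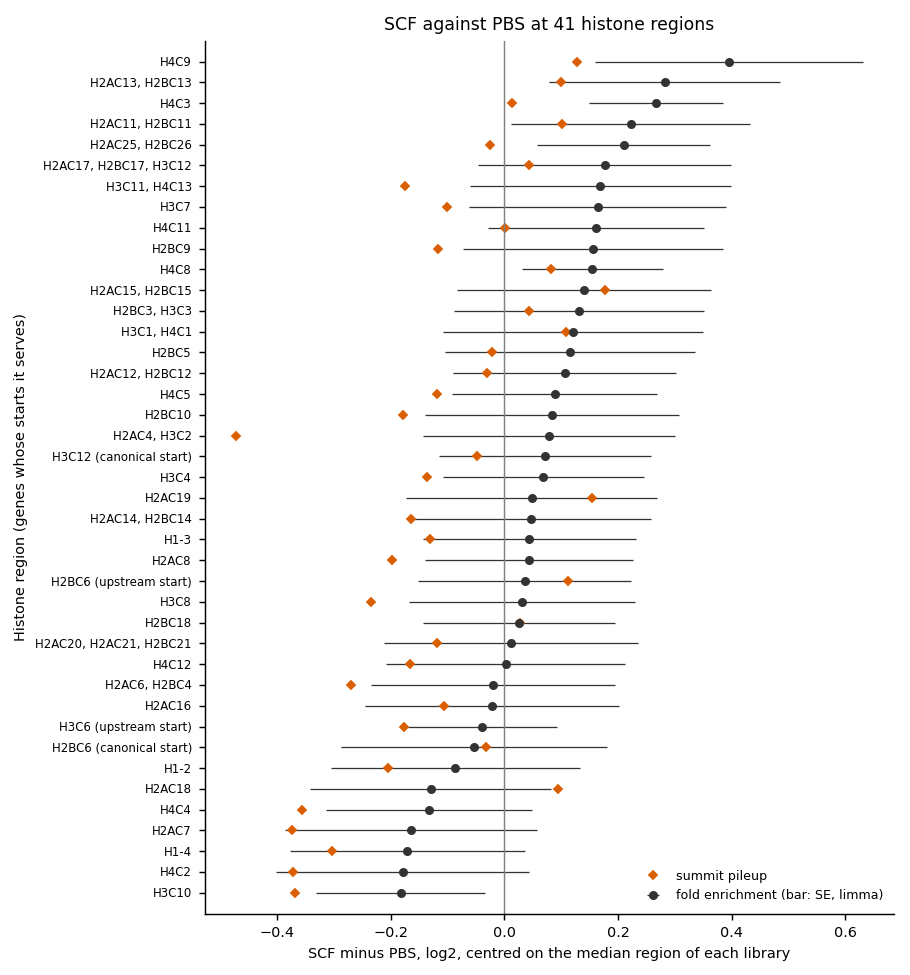
SCF minus PBS difference (x axis, log2, centred per library) at each of the 41 histone regions (y axis, labelled by the genes assigned to it), for fold enrichment (black, bars are limma SE) and summit pileup (orange). Fold enrichment differences run from -0.18 to 0.40 and pileup differences from -0.47 to 0.18, and no region passed the adjusted test on either.

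Among the genes that act on histone genes, 0 of 20 gained and 1 lost rank, beside 2.57% and 3.04% of all regions called in all 4 libraries. The 1 that lost rank was LSM10, which encodes a subunit of the U7 particle that cuts histone pre-mRNA. Its ranks were 71.9 and 79.3 with PBS and 55.6 and 59.2 with SCF. Among the 9 called histone genes outside the clusters 0 gained and 0 lost rank.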

How the data were processed

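ATAC-seq peak lists of 4 HUDEP-2 sgControl libraries (2 PBS, 2 SCF) were analysed, with groups from the labels. According to the methods, the authors sequenced paired ends (2 × 75 bp) and ran the ENCODE ATAC-seq pipeline. The submitters' processing notes name bcl2fastq, Bowtie2 and SAMtools. The peak caller is not given in the sources used here. The methods and processing notes name hg38, whereas the first line of each list and the series description name hg19. Coordinates were read as hg19, and 56.9% of 188 summits of genes called in all 4 libraries lay within 100 bp of an annotated start. Each list was made from its own library.

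The deposited columns are a fold enrichment (a ratio of pileup to local background, read as (pileup + 1)/(background + 1)), the authors' −log10 p-value and −log10 q-value, a summit offset, and a score deposited by the authors, which was not used. The largest q-value was 0.0497. Pileup and background were solved as the whole number and Poisson mean that give both the fold enrichment and the p-value, which worked for 100% of peaks with −log10 p under 300 within a relative error of 0.0001. Depth is otherwise unknown, and intervals from counts are not given.

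Genes were taken from GENCODE release 44 lifted to GRCh37, with every annotated transcript start. H2AC18 and H4C2 stand there under older names and were matched through RefSeq. Peaks that share at least 1 bp across libraries were merged into regions. SCF was compared with PBS by percentile rank and by limma 3.58.1 (R 4.3.3, trend, Benjamini-Hochberg over all regions called in all 4 libraries). The limma test was run on simulated data: of 200 regions shifted by a log2 value of 0.5, 1 and 2, 4%, 98% and 100% were called among 22355. The simulation gave every region the same SD of 0.18, so these shares do not describe regions with a larger spread. Promoter words, uniqueness and predicted proteins were computed from the GRCh37 sequence with Python 3.11.15.

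Named genes were the 3 highest-ranked per family, the 5 lowest, those called in 0 to 3 libraries, those past a test, and the 3 largest and smallest differences. Others, such as H2BC11/H2AC11, H4C14, H2AC18 and H3C12, were named after their values were seen. Members and lists were chosen with earlier results of these data known. Alternatives covered the window, start sites, peak number, q-value, ranking measure, rank gap, normalization, replicate block and each library left out. Some genes of the comparison lists are not reported here.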

Additional observations from a re-analysis of the deposited data

How the results depend on the processing

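Calls at start sites changed little: members called in all 4 libraries ranged from 42 (summit within 500 bp) to 55 (within 2 kb), and those called in none from 10 to 14. The median rank of 48.1 was 44.4 with equal peak numbers per library, 34.5 at a −log10 q of at least 5, 85.6 by −log10 p and 94.2 by pileup. With a gap of 5 points 2 regions gained and 1 lost rank, at −log10 q of at least 5 1 lost, and leaving out 1 library at a time gave 0 to 3 gains and 0 to 2 losses. The median SCF minus PBS difference of 0.07 became -0.11 on pileup and -0.0606 on −log10 p; the cause was not tested. With 1 library left out, 2 to 9 of all regions passed limma (9 without either PBS library, 2 without SCF replicate 1, 4 without SCF replicate 2), and 0 histone regions did. A lone sample in a group is then assumed to vary like the other group. The replicate numbers of the labels only share a number (correlation of deviations 0.012), and the peak names carry other numbers (2 and 3 for PBS replicates 1 and 2, 1 and 2 for SCF), which would tie PBS replicate 1 to SCF replicate 2. With the replicate block on the labels' numbers, 0 histone regions and 0 of all regions passed (1699 at an unadjusted p under 0.05). Of 76 alternatives 59 gave the same call. With 2 libraries per group, shifts of 0.5 on the log2 scale were mostly missed in simulation, so an absent call does not show that a promoter did not change.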
